A study of Drosophila melanogaster with 8 samples.

Results

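Transcripts of the oxidative phosphorylation machinery were examined in brains of young flies that overexpressed Extramacrochaetae (Emc) in neurons. Members were the features whose symbol marks a named subunit of complexes I to V: the prefixes ND-, UQCR-, COX, ATPsyn and SdhA to SdhD for subunits encoded in the nucleus, and the mt: names of subunits encoded in the mitochondrial genome. Of 23932 features in the count table, 93 were members, 80 nuclear and 13 mitochondrial. The rule used names alone and no measured value. Subunits with other kinds of names, such as blw or levy, fell outside it and were examined separately.

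The EmcOE group held 4 samples of dissected brains from flies in which elavC155-Gal4 drove a UAS-emc transgene (elavC155-Gal4>UAS-emc). The Control group held 4 samples of brains from elavC155-Gal4 flies crossed to white*. Both groups carried the driver, were 0 to 1 day old, and pooled male and female brains, so no sample came from 1 animal. The elavC155 driver is pan-neuronal and active before adulthood, so the transgene had acted during development, and glia and other cells of or on the brain that are not its intended target entered both groups. The groups also differ in the line crossed to the driver, which cannot be told apart from Emc overexpression here. Polyadenylated RNA was sequenced as read pairs without strand information.

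Emc is a helix-loop-helix protein without a DNA-binding basic region that holds the class I factor Daughterless (Da) in inactive dimers. Oxidative phosphorylation passes electrons from NADH (complex I) or succinate (complex II) through ubiquinone to complex III, cytochrome c and complex IV, and the proton gradient that complexes I, III and IV build drives ATP synthesis by complex V. Complex II is encoded wholly in the nucleus, whereas the other complexes join nuclear subunits to a few that are transcribed and translated inside the organelle. Neurons depend on this pathway for most of their ATP.

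The libraries held 21400830 to 41619980 counts in EmcOE and 20751513 to 22776791 in Control, the deepest being EmcOE replicate 1. Testing with edgeR covered 9788 features, those that averaged 20 or more normalized counts in EmcOE or in Control. A feature was called where its adjusted p did not exceed 0.05 and its log2 fold change was 0.2 or more in either direction. By this rule 349 features were upregulated and 501 were downregulated. The transcript of emc itself averaged 6038 ± 209 normalized counts in EmcOE brains and 4966 ± 177 in Control brains (SD, n = 4 each; log2 fold change 0.29, edgeR adjusted p = 0.0025), and da averaged 1888 ± 71.3 in EmcOE and 1890 ± 35.0 in Control (log2 fold change 0.0029, adjusted p = 0.977). Of 6 neuronal markers, 5 were higher in EmcOE and 1 was upregulated (fne, log2 fold change 0.33, adjusted p = 0.0088), with a median of 0.16 and summed levels of 127500 to 133000 normalized counts in EmcOE and 115500 to 130200 in Control. The part of this difference in the levels of the members was not tested.

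Of the 93 members, 72 passed the filter on low counts: 59 nuclear and all 13 mitochondrial. Levels were compared between genes as normalized counts per kilobase of exon, which gives the order within a library. Mitochondrial members lay far above nuclear ones. Their median level was 67310 per kilobase in EmcOE and 76170 in Control, against nuclear medians of 4004 in EmcOE and 4260 in Control, a ratio of 16.8 in EmcOE and 17.9 in Control. Levels also differed among complexes in both genomes. Nuclear members of complex V had a median of 10320 in EmcOE and 10370 in Control, and those of complex IV 10400 in EmcOE and 10000 in Control, whereas nuclear members of complex I had 3632 in EmcOE and 3940 in Control and those of complex II 3345 in EmcOE and 3364 in Control. The 3 mitochondrial members of complex IV had a median of 326800 in EmcOE and 404200 in Control, and the 7 of complex I had 50360 in EmcOE and 62120 in Control. Among the 4 subunits of complex II the highest level was 1.28 times the lowest in EmcOE and 1.36 times in Control, among the 7 nuclear members of complex IV 1.90 times in EmcOE and 1.88 times in Control, and among the 3 mitochondrial members of complex IV 1.89 times in EmcOE and 1.72 times in Control.

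**Figure D1:**
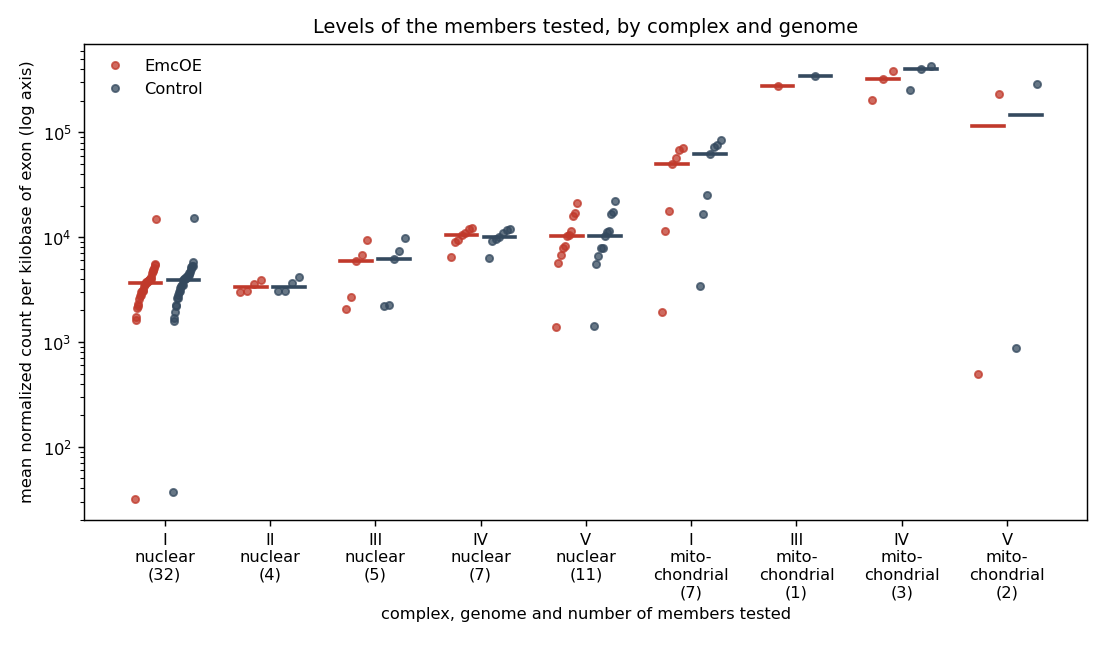
Mean normalized count per kilobase of exon (log axis) of each member tested, by complex and genome, with EmcOE and Control side by side; each point is 1 member averaged over 4 samples and each bar the median of the members. The nuclear medians run from 3345 (complex II) to 10400 (complex IV) in EmcOE, and the mitochondrial members of complexes III and IV lie between 202800 and 433800.

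No member was called in either direction: 0 of 72 upregulated and 0 of 72 downregulated, where 3.57% of all features tested were upregulated and 5.12% downregulated. DESeq2 on the same features also called 0 members. At an unadjusted p under 0.05, 9 of the 72 members passed (12.5%), against 25.5% of all features tested. In 2 members all EmcOE samples lay below all Control samples (2.78% of members, against 8.26% of all features tested), and in 0 members did all lie above (8.60% of all features tested). The nuclear members had a median log2 fold change of -0.02 (39 lower, 20 higher) beside 0.01 over all features tested. With libraries scaled by total counts the nuclear median was 0.05 beside 0.08 over all features tested, and after correction for gene length it was 0.0064 beside 0.0077. For 27 of the 59 nuclear members the 95% interval of the log2 fold change lay within 0.2 of 0, and the median half-width of these intervals was 0.15. The 13 mitochondrial members were lower in EmcOE in every case, with a median of -0.32 and a median half-width of 0.43, and none of their intervals lay within 0.2 of 0.

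**Figure D2:**
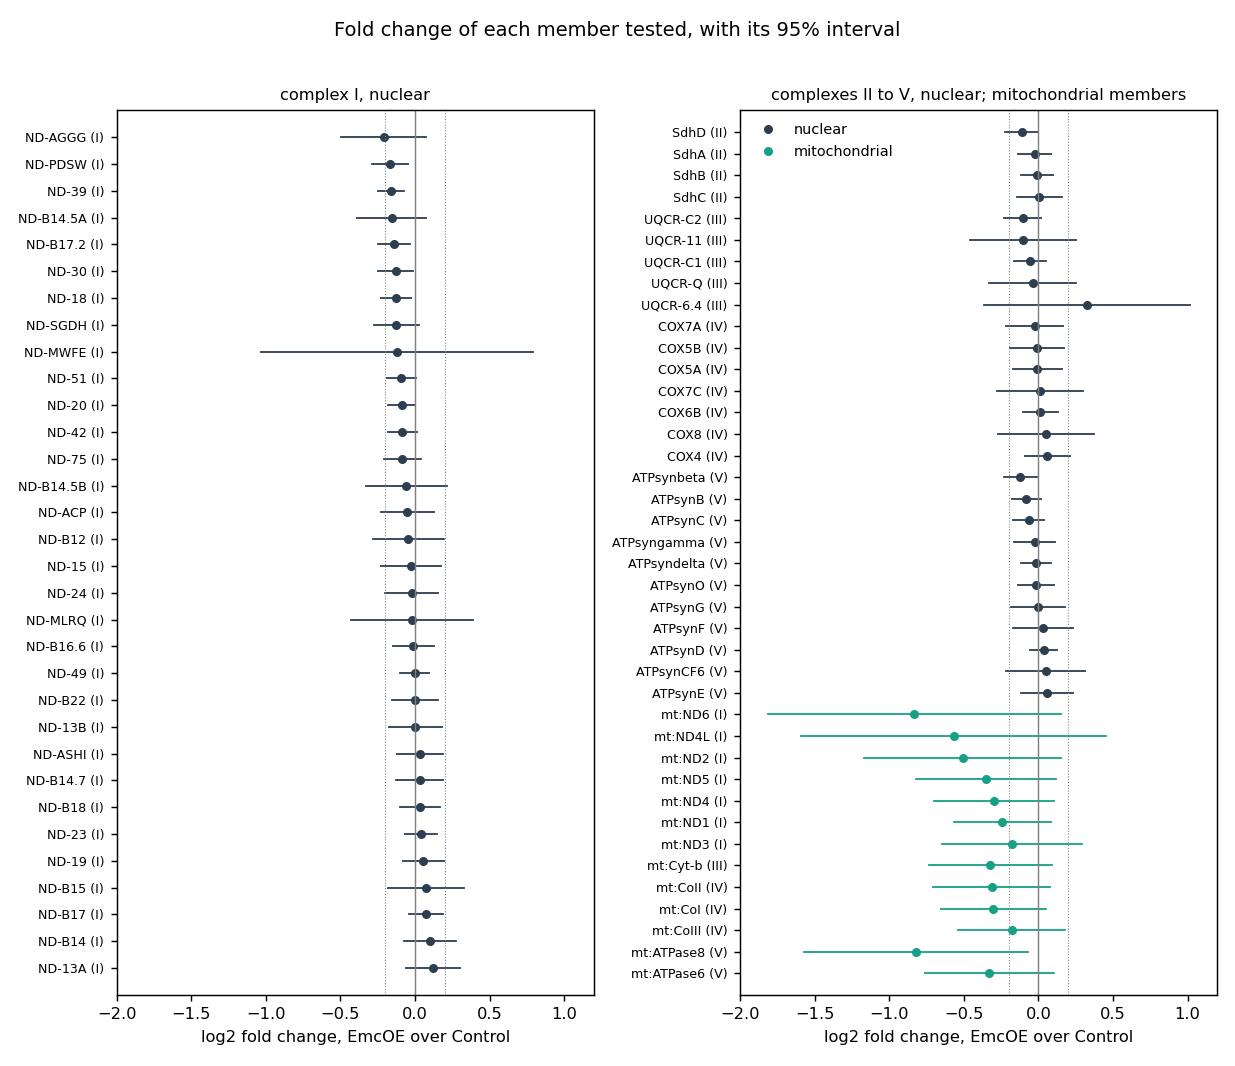
Log2 fold change of EmcOE over Control (points) with its 95% interval (bars) for the 72 members tested, ordered within each complex; dotted lines mark 0.2 in each direction. Nuclear points lie between -0.21 and 0.33, most of them close to 0 with narrow bars, whereas the 13 mitochondrial points lie between -0.83 and -0.18 with wide bars, of which 12 reach across 0.

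Complex I, the NADH dehydrogenase, is the largest of the 5 complexes and had 40 nuclear members, of which 32 were tested. Their median log2 fold change was -0.04, with 22 lower and 10 higher and 0 called. The smallest adjusted p among all members was that of ND-39, the counterpart of the human accessory subunit NDUFA9 (FBgn0037001, BDGP6 3L:20492082-20497084, plus strand). ND-39 had 7804, 7814, 7503 and 7630 normalized counts in EmcOE replicates 1 to 4, against 8442, 8598, 8505 and 8883 in Control. The groups did not overlap, yet the distance between them was modest, and the log2 fold change of -0.16 ± 0.039 (SE, edgeR adjusted p = 0.031) did not reach the minimum of 0.2. With no minimum fold, ND-39 would be the 1 member called lower, where 5.36% of all features tested were.

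ND-18, the counterpart of the human subunit NDUFS4 (FBgn0031021, X:19492421-19493337, plus strand), was the other member without overlap. It had 2937, 3031, 2680 and 2826 normalized counts in EmcOE, against 3274, 3090, 3100 and 3119 in Control (log2 fold change -0.13 ± 0.046, adjusted p = 0.109). The highest EmcOE sample and the lowest Control sample were only narrowly apart. ND-PDSW, a membrane-arm subunit whose human counterpart is NDUFB10, had 3281, 3009, 2675 and 2930 normalized counts in EmcOE, against 3362, 3288, 3241 and 3511 in Control (log2 fold change -0.17 ± 0.056, adjusted p = 0.089). Only EmcOE replicate 1 reached the range of Control. ND-SGDH, counterpart of NDUFB5, showed the same layout more sharply. It had 3709, 2948, 2983 and 2965 in EmcOE, against 3434, 3452, 3353 and 3565 in Control (log2 fold change -0.13 ± 0.068, adjusted p = 0.275), so that EmcOE replicate 1 was above every other sample and the remaining EmcOE samples were below every Control sample. Without EmcOE replicate 1, ND-PDSW (-0.21, adjusted p = 0.030) and ND-SGDH (-0.21, adjusted p = 0.014) were called downregulated and ND-39 stayed under the minimum fold. In that setting 5.09% of all features tested were downregulated. ND-18, ND-PDSW and ND-SGDH were chosen after their values were seen.

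The core subunits of complex I that carry flavin or iron-sulfur clusters were close together. ND-51, which binds NADH in the human enzyme as NDUFV1, averaged 4824 per kilobase in EmcOE and 5162 in Control (log2 fold change -0.09, adjusted p = 0.214), and its partner ND-24 averaged 2210 in EmcOE and 2254 in Control (-0.02, adjusted p = 0.888). ND-49, on chromosome 4, averaged 4591 in EmcOE and 4616 in Control (-0.0037, adjusted p = 0.970), and ND-20, the human NDUFS7, 3090 in EmcOE and 3300 in Control (-0.09, adjusted p = 0.192). Among nuclear members of complex I the highest level belonged to ND-MLRQ, at 14960 ± 4920 per kilobase in EmcOE and 15210 ± 2290 in Control (SD, n = 4 each; adjusted p = 0.958). Its human counterpart NDUFA4 is now placed in complex IV, and its level lay nearer to the nuclear members of complex IV than to those of complex I. ND-ACP, the mitochondrial acyl carrier protein, followed at 5525 ± 795 in EmcOE and 5740 ± 231 in Control (adjusted p = 0.736). The outermost fold changes of nuclear complex I members were -0.21 in ND-AGGG (adjusted p = 0.331) and 0.12 in ND-13A (adjusted p = 0.380), both with overlapping groups. ND-B14.5A, which has an L-suffixed copy, averaged 2526 normalized counts in EmcOE and 2821 in Control (-0.16, adjusted p = 0.379).

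**Figure D3:**
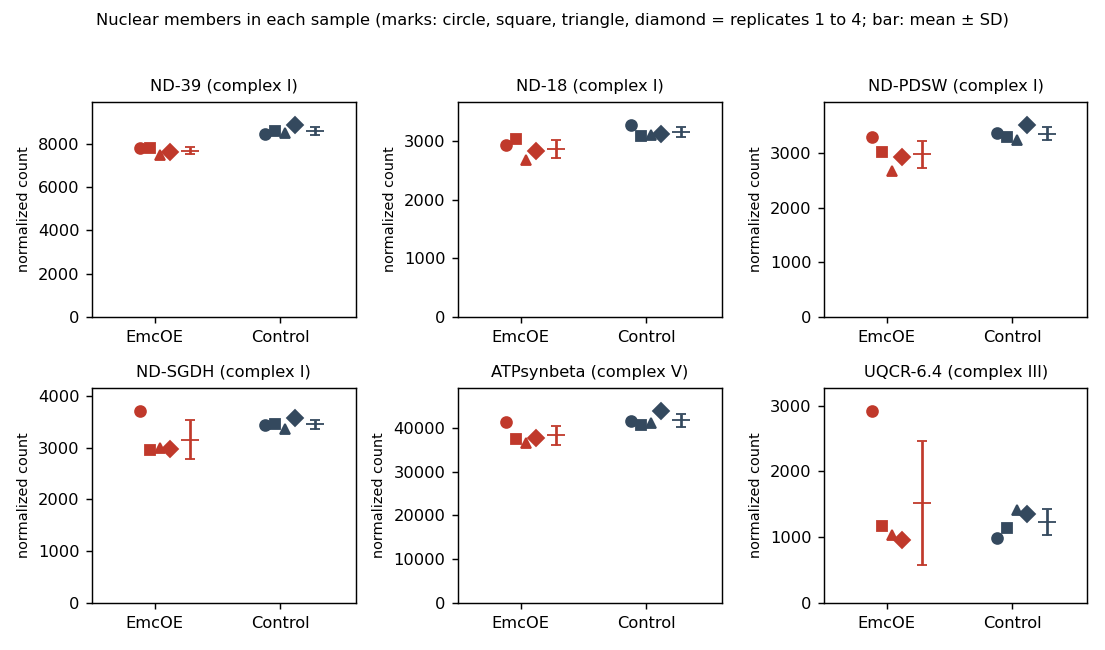
Normalized counts of 6 nuclear members in the 4 EmcOE and 4 Control samples (marks show replicates 1 to 4), with the mean ± SD beside them. ND-39 and ND-18 show separate groups, and in ND-SGDH and UQCR-6.4 EmcOE replicate 1 lies above all other samples while EmcOE replicates 2 to 4 lie together.

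Complex II, the succinate dehydrogenase that also serves the citric acid cycle, had 4 of 6 members tested. SdhA, the flavoprotein, averaged 8317 ± 276 normalized counts in EmcOE and 8496 ± 382 in Control (log2 fold change -0.03, adjusted p = 0.792), and SdhB, the iron-sulfur subunit, 4392 ± 96.8 in EmcOE and 4436 ± 198 in Control (-0.01, adjusted p = 0.916). Of the membrane anchors, SdhC averaged 2797 ± 266 in EmcOE and 2798 ± 208 in Control (0.0046, adjusted p = 0.98). SdhD had 3811, 3335, 3352 and 3324 in EmcOE, against 3820, 3631, 3678 and 3862 in Control (-0.11 ± 0.049, adjusted p = 0.181), and again only EmcOE replicate 1 entered the Control range. The intervals of SdhA, SdhB and SdhC lay within 0.2 of 0.

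Complex III, the cytochrome bc1 complex, had 5 of 8 nuclear members tested, with a median of -0.06. Its core proteins UQCR-C1 (9411 ± 218 per kilobase in EmcOE, 9810 ± 450 in Control; log2 fold change -0.06, adjusted p = 0.511) and UQCR-C2 (6779 ± 240 in EmcOE, 7320 ± 428 in Control; -0.11, adjusted p = 0.268) were steady between replicates, and the small subunits were not. UQCR-6.4 had 2922, 1171, 1026 and 960 normalized counts in EmcOE, against 981, 1145, 1411 and 1360 in Control. Its log2 fold change of 0.33 ± 0.31 (adjusted p = 0.555), the highest of all members, rested on EmcOE replicate 1 and was -0.21 without that sample. Moreover, 40.5% of its exon sequence lies within POSH. UQCR-Q averaged 5979 ± 1440 per kilobase in EmcOE and 6161 ± 569 in Control (-0.04, adjusted p = 0.884), and UQCR-11 2079 ± 514 in EmcOE and 2242 ± 397 in Control (-0.10, adjusted p = 0.733).

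Complex IV, the cytochrome c oxidase, had 7 of 11 nuclear members tested, and 0.01 was their median log2 fold change. COX5A had 11930 ± 1440 per kilobase in EmcOE and 12030 ± 672 in Control (-0.0084, adjusted p = 0.959), COX8 12190 ± 3160 in EmcOE and 11800 ± 1410 in Control (0.05, adjusted p = 0.869), and COX6B 11000 ± 904 in EmcOE and 10930 ± 93.2 in Control (0.01, adjusted p = 0.907). The outermost values were -0.03 in COX7A (adjusted p = 0.885) and 0.06 in COX4 (adjusted p = 0.619), COX4 being a regulatory subunit. COX5B, which binds zinc, gave -0.01 (adjusted p = 0.954). In all 7 the groups overlapped.

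Complex V, the ATP synthase, had 11 of 15 nuclear members tested, with a median of -0.01. It held the most abundant nuclear members: ATPsynC, which forms the rotating ring in the membrane, with 21260 ± 578 per kilobase in EmcOE and 22300 ± 602 in Control (-0.06, adjusted p = 0.426), and the catalytic subunit ATPsynbeta with 16050 ± 886 in EmcOE and 17510 ± 613 in Control. ATPsynbeta had 41353, 37520, 36503 and 37812 normalized counts in EmcOE, against 41516, 40619, 41102 and 43910 in Control (-0.12 ± 0.050, adjusted p = 0.157). As in SdhD, EmcOE replicates 2 to 4 were below every Control sample and EmcOE replicate 1 was not. ATPsynF averaged 16950 ± 2700 per kilobase in EmcOE and 16650 ± 954 in Control (0.03, adjusted p = 0.879). The highest fold change of the complex was that of ATPsynE (0.06, adjusted p = 0.690), followed by the stalk factor ATPsynCF6 (0.05, adjusted p = 0.849), while ATPsynG gave -0.0038 (adjusted p = 0.983).

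EmcOE replicate 1 stood apart across the nuclear members. It was the highest of the 8 samples in 40 of 59, and in 25 of the 31 whose exons span at most 900 bases. These shares were not computed over all features tested, so they do not show a trait particular to the members. Sums over the mitochondrial ribosomal protein genes, which are not members, ran from 36800 to 43800 in EmcOE and 38640 to 39590 in Control. The median log2 deviation of the nuclear members from the mean of Control was 0.18 in EmcOE replicate 1 and -0.07, -0.14 and -0.10 in EmcOE replicates 2, 3 and 4, whereas the Control samples lay between -0.04 and 0.07. In EmcOE replicate 1 the deviation was 0.25 in short members and 0.09 in the 28 longer ones. Across the nuclear members it correlated with exon length by a Spearman rho of -0.59, a description over genes of 1 library. Other samples also had such a correlation: -0.141, 0.322 and 0.206 in EmcOE replicates 2 to 4, and -0.357 to 0.485 in Control. Over all features tested the rho was -0.177 in EmcOE replicate 1 and 0.16 to 0.307 in EmcOE replicates 2 to 4. In Control it was -0.102 to 0.059. Without EmcOE replicate 1, 51 of the 59 nuclear members were lower in EmcOE (48.4% of all features tested), their median was -0.09, and 2 were called downregulated, where 5.09% of all features tested were. Without EmcOE replicate 3 instead, 24 were lower, the median was 0.015 and 0 were called. How many nuclear members were lower thus depended on single EmcOE libraries (27 without EmcOE replicate 4). Whether the depth of EmcOE replicate 1 or the length of its RNA played a part was not tested.

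**Figure D4:**
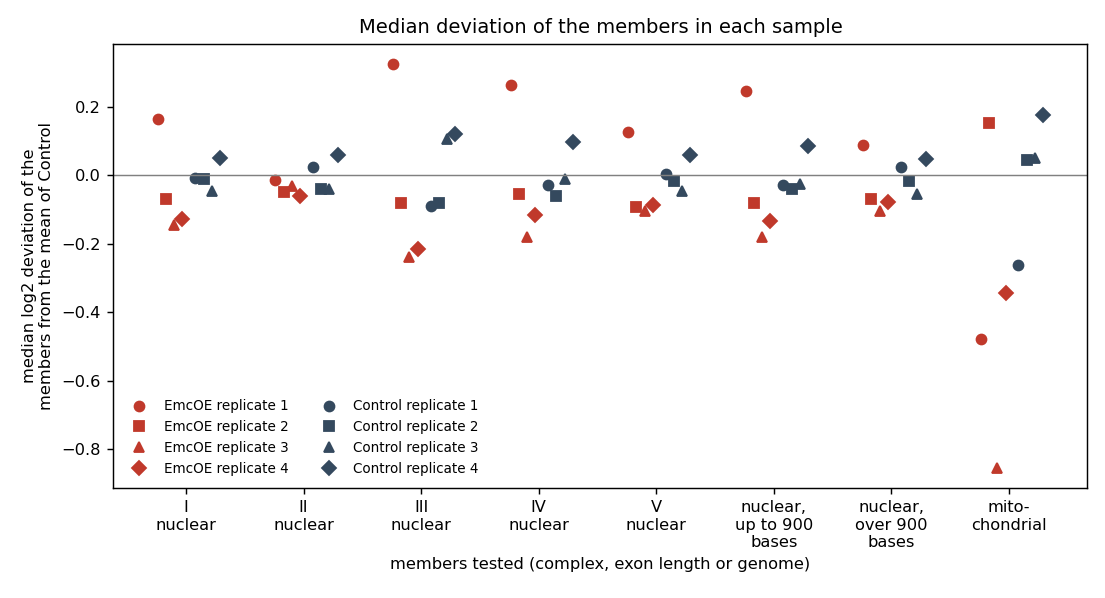
Median log2 deviation from the mean of Control over the members tested in each sample, by nuclear complex, by exon length of the nuclear members and for the mitochondrial members. EmcOE replicate 1 lies above all others in complexes I, III, IV and V and reaches 0.25 in members of up to 900 bases, and in the mitochondrial members EmcOE replicates 1, 3 and 4 lie below the Control samples while EmcOE replicate 2 does not.

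The mitochondrial genome encodes 7 subunits of complex I, cytochrome b of complex III, 3 subunits of complex IV and 2 of complex V, and these transcripts are cut from long precursors and polyadenylated in the organelle. All 13 had a lower mean in EmcOE under every scaling and with any single sample left out, and with all samples none was called. The log2 fold changes ran from -0.83 in mt:ND6 to -0.18 in mt:ND3, with adjusted p-values of 0.157 or more, and 12 of the 13 intervals included 0. Single libraries moved these values: the median was -0.54 without EmcOE replicate 2 and -0.18 without EmcOE replicate 3, mt:ND6 was -0.48 without EmcOE replicate 1 and mt:ND3 was -0.0076 without EmcOE replicate 3. The groups overlapped in each of the 13. The spread between replicates was wide: the median SD was 32.2% of the mean in EmcOE and 13.7% in Control, against 9.53% in EmcOE and 4.66% in Control for nuclear members. As they come from shared precursors in the same organelles, the 13 are not independent measurements.

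The mitochondrial transcripts of complexes III and IV, with mt:ATPase6 of complex V, stood above the others per kilobase. The mt:CoI transcript, encoding the catalytic subunit of complex IV, had 442240, 650570, 376670 and 538190 normalized counts in EmcOE, against 508490, 582900, 683980 and 708220 in Control (log2 fold change -0.30 ± 0.16, adjusted p = 0.266). EmcOE replicates 1 and 3 were below the Control range and replicates 2 and 4 within it. The mt:Cyt-b transcript had 307890, 445810, 200990 and 298140 in EmcOE, against 338820, 407150, 405390 and 419490 in Control (-0.32 ± 0.19, adjusted p = 0.313), with EmcOE replicate 2 above every Control sample and the other EmcOE samples below all of them. The mt:CoII transcript (-0.31, adjusted p = 0.30) showed the same arrangement. In mt:ATPase6 (-0.33, adjusted p = 0.323), which encodes the proton-channel subunit of complex V, EmcOE replicates 3 and 4 were below the Control range and replicates 1 and 2 within it. The mt:CoIII transcript differed less (-0.18, adjusted p = 0.531).

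The mitochondrial transcripts of complex I subunits were lower in level per kilobase than those. The mt:ND5 transcript had 66397, 146770, 73756 and 106030 normalized counts in EmcOE, against 112340, 134430, 121270 and 135340 in Control (log2 fold change -0.35 ± 0.21, adjusted p = 0.328). The mt:ND4L transcript had 973, 7126, 2355 and 2755 in EmcOE, against 4360, 6457, 3659 and 5074 in Control (-0.57 ± 0.46, adjusted p = 0.477). In both, EmcOE replicate 2 was above all Control samples and the other EmcOE samples were below all of them. Without EmcOE replicate 2 both were called downregulated (mt:ND5 -0.62, adjusted p = 0.044, and mt:ND4L -1.28, adjusted p = 0.048). In that setting 2 of 72 members and 3.73% of all features tested were downregulated. The mt:ND6 transcript had 221, 1666, 876 and 1294 in EmcOE, against 1455, 2276, 1639 and 1789 in Control (-0.83 ± 0.44, adjusted p = 0.272), and EmcOE replicate 1 lay well below the rest. The mt:ND2 transcript (-0.51, adjusted p = 0.320), mt:ND4 (-0.30, adjusted p = 0.337), mt:ND1 (-0.24, adjusted p = 0.334) and mt:ND3 (-0.18, adjusted p = 0.646) made up the remainder.

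The lowest mitochondrial member was mt:ATPase8 (mitochondrion_genome:3907-4068, plus strand, 162 bases), which had 57.6, 111, 54.1 and 101 normalized counts in EmcOE, against 60.7, 155, 173 and 180 in Control. Its log2 fold change of -0.82 ± 0.34 had the smallest adjusted p of the mitochondrial members (0.157), Control replicate 1 being as low as the lower EmcOE samples. Without that replicate mt:ATPase8 was called downregulated (-1.08, adjusted p = 0.035), where 3.64% of all features tested were. Of its exon, 4.3% lies within mt:ATPase6, and read pairs that touch both are assigned to neither. In so short a feature beside another, the count can therefore understate the transcript.

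**Figure D5:**
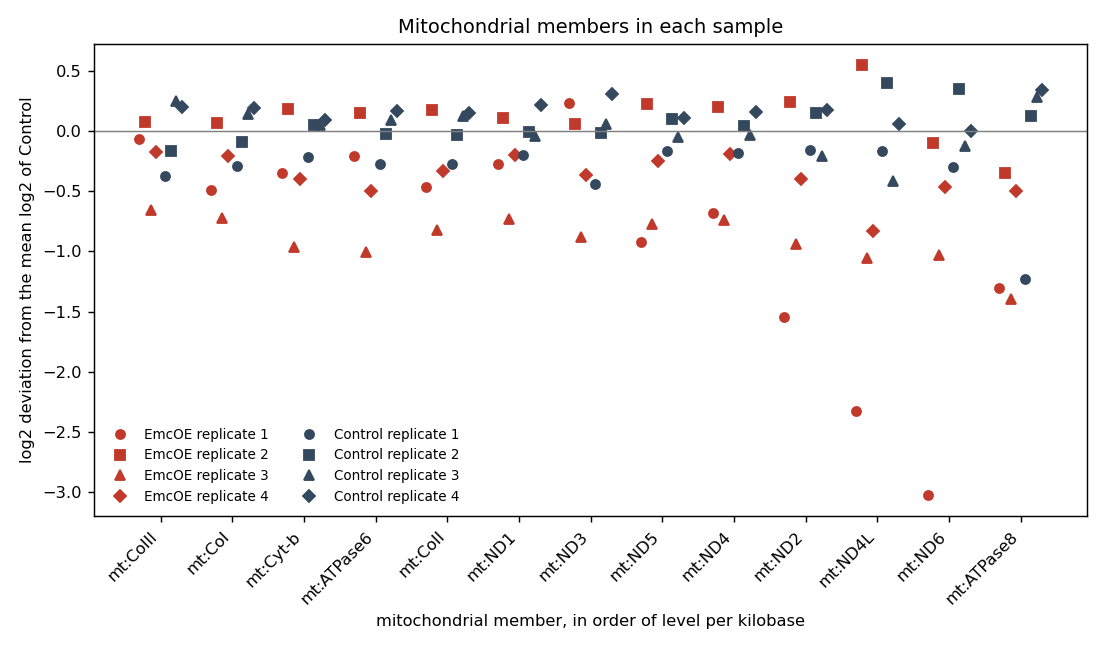
Log2 ratio of the normalized count of each mitochondrial member to its mean over the Control samples, in the 8 samples. The axis label calls this a deviation from the mean log2 of Control. Members are in order of level per kilobase from the highest (mt:CoIII) to the lowest (mt:ATPase8). EmcOE replicates 3 and 1 hold the lowest value of every member (9 and 4 of 13), and EmcOE replicate 2 the highest of 6.

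The order of the mitochondrial members by level per kilobase was the same in both groups for all 13. It ran from mt:CoIII (382400 in EmcOE, 433800 in Control) through mt:CoI, mt:Cyt-b, mt:ATPase6 and mt:CoII (202800 in EmcOE, 252600 in Control). Then came mt:ND1, mt:ND3, mt:ND5 and mt:ND4 (50360 in EmcOE, 62120 in Control) and mt:ND2 (17850 in EmcOE, 25490 in Control). The last were mt:ND4L (11350 in EmcOE, 16800 in Control), mt:ND6 (1932 in EmcOE, 3408 in Control) and mt:ATPase8 (500 in EmcOE, 877 in Control). The ratio of highest to lowest level was 765 in EmcOE and 495 in Control. This ratio compares assigned counts and may overstate the difference between transcripts. Read pairs that also touched another feature were not assigned. Among the low members, mt:ATPase8 (162 bases) overlaps mt:ATPase6, and mt:ND4L (291 bases) overlaps mt:ND4. How far such losses set the low end of the order was not tested. Neighbours in this order overlapped between samples of a group, except at the steps from mt:CoII to mt:ND1, from mt:ND4 to mt:ND2 and from mt:ND4L to mt:ND6, where they were apart in both groups, and at the last step, where they were apart in Control alone. The 4 genes on the minus strand (mt:ND1, mt:ND4, mt:ND4L and mt:ND5) had a median log2 fold change of -0.32, the same to 2 decimals as the 9 genes on the plus strand.

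Mitochondrial mRNA made up 6.81%, 8.93%, 5.37% and 7.16% of all counts in EmcOE replicates 1 to 4 (7.07 ± 1.46), against 7.27%, 8.19%, 8.81% and 8.97% in Control (8.31 ± 0.773). The groups overlapped, since EmcOE replicate 2 was close to the highest Control sample. Mitochondrial rRNA, which a poly(A) library also captures, moved with it: 10.97%, 15.63%, 8.61% and 11.75% in EmcOE, against 12.46%, 14.77%, 15.22% and 14.99% in Control. The nuclear members took 1.82%, 1.46%, 1.62% and 1.54% in EmcOE, against 1.66%, 1.56%, 1.53% and 1.59% in Control. Counts on mitochondrial members were therefore 3.75, 6.11, 3.32 and 4.64 times those on nuclear members in EmcOE (4.45 ± 1.23), against 4.38, 5.24, 5.78 and 5.65 times in Control (5.26 ± 0.628). The ratio was highest in EmcOE replicate 2 and lowest in EmcOE replicate 3, so EmcOE spanned the whole range of Control. In bulk samples fewer cells of a type and less RNA per cell cannot be told apart, nor can fewer genomes and less transcript per genome.

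Markers of tissue that can remain on a dissected brain, and of glia, were read beside these values. Of 12 muscle markers tested, 11 were lower in EmcOE and 0 were called, with a median log2 fold change of -0.29 and a summed level of 27310 to 42800 normalized counts in EmcOE and 34130 to 48590 in Control. Of 5 hemocyte markers tested, 4 were lower and 2 were downregulated (Hml and NimC1), with a median of -0.48. Their summed levels, 5845 to 6525 in EmcOE and 6145 to 6790 in Control, consist mostly of Pxn, the tested marker that was higher (5375 ± 273 in EmcOE and 5130 ± 172 in Control). Of 11 fat body markers, 7 were higher and 4 lower, with a median of 0.025, and 4 were upregulated (Lsp1alpha, Lsp1beta, Fbp1 and Fbp2). The lower ones were Lsp1gamma (-0.25), apolpp (-0.10), Yp3 (-0.21) and FASN1 (-0.26). Fat body sums ran from 101800 to 173800 in EmcOE and from 66960 to 220200 in Control. Of 12 photoreceptor markers, 10 were lower and 0 were called, with sums of 755800 to 804800 in EmcOE and 779400 to 925600 in Control. Of 8 glial markers, 4 were lower and 4 higher, with a median of -0.02, and 1 was downregulated (Gs2). Glial sums were 101000 to 111500 in EmcOE and 115400 to 119800 in Control. Gs2 had the highest level of the 8 (40850 ± 1540 in EmcOE and 49430 ± 1130 in Control) and weighs most in these sums. No marker of these lists was at 0 in all 8 samples, and the hemocyte marker He, at 0 in 2 EmcOE samples and 1 Control sample, was too low to test. Their part in the levels of the members was not tested.

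Drosophila carries a second, L-suffixed copy of many subunits, and 18 of the 93 members bore such a name. All 18 were too low to test. The largest normalized count of any of them in any sample was 18.3, in UQCR-11L. Set beside their partners, ND-51L1 had 2.42 per kilobase in EmcOE and 1.91 in Control, where ND-51 had 4824 in EmcOE and 5162 in Control. COX4L had 7.23 in EmcOE and 13.4 in Control, where COX4 had 10400 in EmcOE and 10000 in Control, and UQCR-11L had 24.9 in EmcOE and 31.6 in Control, where UQCR-11 had 2079 in EmcOE and 2242 in Control. Summed over the 4 libraries of a group, SdhBL had 14 counts in EmcOE and 6 in Control, SdhAL 9 in EmcOE and 1 in Control, ND-B14.5AL 6 in EmcOE and 0 in Control, ND-20L 5 in EmcOE and 1 in Control, ND-49L 4 in EmcOE and 0 in Control, and ATPsynbetaL 3 in EmcOE and 0 in Control. ND-24L had 0 in EmcOE and 1 in Control, UQCR-14L 1 in EmcOE and 0 in Control, ND-51L2 6 in EmcOE and 9 in Control, ATPsynCF6L 2 in EmcOE and 6 in Control, COX7AL 11 in EmcOE and 13 in Control, and ATPsynGL 6 in EmcOE and 5 in Control. These sums are not scaled for depth, which averaged 26680000 counts in EmcOE and 21660000 in Control, and EmcOE replicate 2 held 9 of the EmcOE counts on SdhBL, 4 on ND-B14.5AL and 3 on ATPsynbetaL. With so few reads, which could also come in part from the related partner, no fold is given. Of 10 testis markers listed, 3 were tested and 0 were called. EmcOE replicate 2 was the highest EmcOE sample in betaTub85D (122, others 53.6 to 64.3) and Mst98Ca (16.6, others 3.01 to 4.43), but not in bol. Control samples reached 95.9 in betaTub85D and 22.1 in Mst98Ca. A link between these markers and the L copies was not tested. COX6AL, with 0 to 8.30 normalized counts in EmcOE and 0 to 6.62 in Control, and ATPsynepsilonL, with 4.43 to 15.4 in EmcOE and 4.79 to 8.53 in Control, have partners outside the naming rule (levy and sun).

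A further 3 members that are not copies were too low to test, and their gene models bear on that. ND-MNLL (X:7893053-7893798) lies wholly within CG45089 on the same strand and UQCR-14 (X:16286288-16286988) wholly within CG32576 on the opposite strand. Both had 0 counts in all 8 samples, as did COX5BL, which lies wholly within CG9596. Because pairs that overlap more than 1 feature were not assigned, a count of 0 there says nothing about the transcript. CG32576 averaged 310 ± 49.6 normalized counts in EmcOE and 317 ± 39.1 in Control (log2 fold change -0.02, adjusted p = 0.928), and CG45089 was at 0 in all samples. ND-B8 had 7.34, 8.30, 23.0 and 0 normalized counts in EmcOE, against 4.41, 4.33, 2.44 and 22.8 in Control, with 15.4% of its exon within Gs1l. ND-MWFE, which was tested, averaged 27.0 ± 19.3 in EmcOE and 30.9 ± 5.78 in Control (-0.12, adjusted p = 0.885), with 35.0% of its exon in other features. How far the overlaps account for the low counts was not tested.

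Subunits of the chain that carry other names were read as a list of 9: blw and sun (the alpha and epsilon subunits of ATP synthase), RFeSP, Cyt-c1 and ox of complex III, levy and cype of complex IV, and the cytochromes c Cyt-c-p and Cyt-c-d. Of 8 tested, 0 were called, and the median log2 fold change was -0.03. The alpha subunit blw averaged 42370 ± 2110 normalized counts in EmcOE and 42970 ± 2100 in Control (-0.02, adjusted p = 0.901), RFeSP 8314 ± 419 in EmcOE and 8707 ± 375 in Control (-0.06, adjusted p = 0.452), Cyt-c1 10740 ± 427 in EmcOE and 11090 ± 496 in Control (-0.04, adjusted p = 0.628), Cyt-c-p 15100 ± 1430 in EmcOE and 16240 ± 142 in Control (-0.10, adjusted p = 0.318) and levy 8176 ± 1030 in EmcOE and 8416 ± 359 in Control (-0.04, adjusted p = 0.792). The small subunits ox and cype showed the layout of UQCR-6.4. The ox transcript had 2457, 839, 772 and 793 in EmcOE, against 662, 799, 1049 and 887 in Control (0.53 ± 0.35, adjusted p = 0.368), and cype had 8053, 4080, 4253 and 4147 in EmcOE, against 3855, 4064, 4551 and 4560 in Control (0.27 ± 0.19, adjusted p = 0.406). Both fold changes rested on EmcOE replicate 1 and were -0.07 (ox) and -0.02 (cype) without it. The sun transcript gave 0.14 (adjusted p = 0.582), and Cyt-c-d, of which the best known role is in the testis, averaged 18.1 ± 6.22 in EmcOE and 8.58 ± 4.53 in Control and was not tested.

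Neighbouring mitochondrial pathways were read in the same fit. Of 14 citric acid cycle genes tested, 0 were called, with a median of -0.04 and values from -0.08 to 0.04. Of 7 carriers of the inner and outer membrane, 0 were called, and the lowest was Mpcp1, a phosphate carrier, at 795 ± 224 in EmcOE and 1239 ± 403 in Control (-0.63, adjusted p = 0.144), while its more abundant relative Mpcp2 gave -0.02 (adjusted p = 0.771). Of 9 genes that copy, package, transcribe or stabilize mitochondrial DNA and RNA, 1 was upregulated and 0 were downregulated. This was bsf, which encodes a pentatricopeptide-repeat protein that binds mitochondrial mRNA, at 2431 ± 68.4 in EmcOE and 2089 ± 69.5 in Control (0.22, adjusted p = 0.011). TFAM, the packaging factor of mitochondrial DNA, averaged 552 ± 4.31 in EmcOE and 600 ± 17.7 in Control (-0.12, adjusted p = 0.220), and the mitochondrial RNA polymerase gene mtRNApol gave -0.0057 (adjusted p = 0.971). In the same list mtTFB1 and DNApol-gamma35 were at 0 in all samples, and both lie wholly within other features, so this says nothing about the transcripts. Of 72 mitochondrial ribosomal protein genes tested, 0 were upregulated and 1 was downregulated (mRpL2), with a median of 0.04. The nuclear regulators srl, ewg, Ets97D, Dref, Myc and ERR had values between -0.19 and 0.14 with 0 called, and 6 assembly factors tested had a median of 0.06 with 0 called.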

How the data were processed

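Per the study's methods and the labels, the authors trimmed read pairs, mapped them with STAR 2.7.4a in 2 passes to the BDGP6 genome and counted pairs per feature with featureCounts 2.0.1, ignoring strand and using only pairs that mapped at both ends, were not chimeric and overlapped a single feature. The deposited values were these raw counts, with exon coordinates and lengths. The tests used edgeR 4.0.16 and limma 3.58.1 in R 4.3.3 (TMM, quasi-likelihood test, Benjamini-Hochberg over all 9788 features tested, adjusted p of 0.05, log2 fold change of 0.2), and DESeq2 1.42.0 was an alternative. Normalized counts are counts over the effective library size times its mean. The code was tested on simulated data. Groups came from the sample titles. The study's methods describe pooled brains, and the labels do not say how far samples shared crosses or days. The p-values thus measure only the spread between these samples, which may be partly technical. No 2 samples agreed within sampling noise. Intervals cover the spread between samples and not processing error.

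Named were members called, all mitochondrial members, in each nuclear complex the 3 highest per kilobase and the outermost fold changes, members with an L copy, members with an adjusted p of up to 0.1 with a log2 fold change of 0.2 or more in either direction, and the chain genes of other names; further names were chosen after their values were seen. The members and lists were chosen with earlier results of these data known. Listed symbols were matched through RefSeq and Ensembl gene names, and Dld, COX10, COX11, COX15, COX16 and COX19 were not matched. Features named CG in the table that later annotation calls by a member's name were not members. Of all rows, 6063 had no gene name and were kept as features. Alternatives were other scalings, filters, thresholds and tools, removal of mitochondrial features, the replicate number as a block, a gene length correction (lowess span 0.3) and leaving out each sample. Promoter and protein sequences were not used here, so the planned motif description was not run.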

Additional observations from a re-analysis of the deposited data

Results flagged for a closer look

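In groups of 4 samples, a sample was singled out where its gap to the nearest other sample over the range of the group exceeded the 95% critical value of Dixon's test. Of 126 groups examined, 18 had such a sample. The nominal rate of the test is about 1 in 20. The groups share the same libraries and include genes picked by their values, so this rate is no measure of chance here. EmcOE replicate 1 accounted for 15 of the 18. It held 41619980 counts, where the next EmcOE sample held 22171168. Its normalized counts stood above the other EmcOE samples in SdhD (3811, next 3352), SdhC (3195, next 2694), COX6B (9741, next 8443), COX7A (7968, next 6161), ATPsynF (12909, next 9727), ATPsynE (4984, next 3905), ATPsynCF6 (7767, next 5242), ATPsynG (9791, next 7731), ND-24 (2863, next 2216), ND-SGDH (3709, next 2983), UQCR-6.4 (2922, next 1171), ox (2457, next 839) and cype (8053, next 4253). In UQCR-C2 it stood below them (10830, next 11545). In Control, replicate 4 was high in ND-ACP (5125, next 4750), replicate 1 was high in ND-18 (3274, next 3119), and replicate 1 was low in the share of mitochondrial rRNA (12.46% of counts, next 14.77%).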

How the results depend on the processing

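No member was called upregulated in any alternative, and 0 were called downregulated with DESeq2 size factors, total counts, mitochondrial features removed, no filter, a minimum of 100, DESeq2, the gene length correction or an adjusted p of up to 0.1. With no minimum fold change 1 was downregulated (ND-39), where 5.36% of all features tested were. Leaving out single samples gave 0 to 2 members downregulated, where 3.29% to 5.21% of all features tested were. Over those left-out samples the median log2 fold change of nuclear members ran from -0.092 to 0.015, that of mitochondrial members from -0.54 to -0.18 and the difference in mitochondrial mRNA share from -1.86 to -0.679 percentage points, against -1.24 with all samples. With the replicate number as a block, edgeR called 0 members and gave medians of -0.03 (nuclear) and -0.37 (mitochondrial), and DESeq2 with the block 0 and medians of -0.03 and -0.38. Same-numbered samples correlated by -0.488, 0.148, 0.032 and -0.212 in their deviations. With 1 pair per number, these values cannot show whether such samples shared crosses or days. Total counts moved the median of all features tested from 0.01 to 0.08 and the split of all calls to 413 up and 272 down, against 349 and 501. Of 55 named genes tested, 27 kept their direction throughout, and 6 others changed sign with total counts alone, where all features shift together. Uncalled log2 fold changes that changed sign were, with total counts, 0.051 for ND-MLRQ, 0.017 for ND-ACP, 0.056 for SdhB, 0.042 for SdhA, 0.009 for UQCR-C1, 0.031 for UQCR-Q, 0.061 for COX5A, 0.003 for ATPsynC, 0.044 for COX7A, 0.044 for ND-24, 0.064 for ND-49, 0.057 for COX5B, 0.066 for ATPsynG, 0.053 for blw, 0.005 for RFeSP, 0.025 for Cyt-c1 and 0.031 for levy, with the length correction 0.025 for SdhB, 0.019 for COX5A, 0.007 for ND-24, 0.026 for ND-49, 0.012 for COX5B, 0.023 for ATPsynG and 0.0029 for blw, and for SdhC -0.0026 with DESeq2 size factors, -0.001 with a minimum of 100, -0.0015 with DESeq2 and -0.0034 with DESeq2 and the block. With single samples left out they ran from -0.034 to 0.023 for SdhB, -0.14 to 0.14 for COX8, -0.039 to 0.034 for COX6B, -0.082 to 0.065 for ATPsynF, -0.058 to 0.052 for SdhC, -0.21 to 0.49 for UQCR-6.4, -0.039 to 0.10 for ATPsynE, -0.12 to 0.11 for ATPsynCF6, -0.054 to 0.0097 for blw, -0.036 to 0.22 for sun, -0.070 to 0.69 for ox, -0.020 to 0.36 for cype, -0.088 to 0.027 for COX5A, -0.028 to 0.0074 for ND-49, -0.096 to 0.033 for ATPsynG, -0.26 to 0.10 for ND-MLRQ, -0.21 to 0.034 for UQCR-Q, -0.13 to 0.016 for COX7A, -0.13 to 0.013 for ND-24, -0.27 to 0.0067 for UQCR-11, -0.11 to 0.044 for COX5B and -0.12 to 0.0032 for levy. The cause was not tested. The L copies and ND-B8 had too few counts for a test. The motif description of promoters was not run.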
